A study of Mus musculus with 2 samples.

Results

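The proteasome is the protease that degrades most ubiquitin-tagged proteins. The genes encoding its subunits and their helpers were followed in organoids grown from normal mouse urothelium, the stratified epithelium that lines the bladder. They were taken as every gene whose symbol starts with Psm, followed by a letter from a to g and a number, leaving out Psmb8, Psmb9 and pseudogenes. This rule found 48 of the 31053 genes counted, and it used no measured value. The cells came from wild-type (WT) C57BL/6 mice of 8 to 10 weeks. Proliferative organoids (NMU-O-P, here P) were kept in complete medium, and differentiated organoids (NMU-O-D, here D) were moved for the last week of culture to medium lacking EGF, LY2157299, Noggin, WNT3A and RSPO1. Each condition was a single droplet library of 3′ tags without cell sorting, so culture, library and condition cannot be told apart, no test between them was possible, and every interval below is a 95% interval for counting error only.

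After removal of barcodes with 800 genes or fewer, or with over 12% mitochondrial counts, 6818 of 8194 barcodes remained in P and 4896 of 6975 in D (6826 in P if exactly 800 genes is allowed). They held 26681469 and 20305621 unique molecular identifiers (UMIs, 1 per captured transcript), with medians of 3405.5 and 3227.5 per cell. The libraries shared 6 barcode sequences among kept cells. Ribosomal protein genes took 37.4% of the UMIs in P and 21.4% in D, and 10 genes of the response to tissue dissociation summed to 1327 and 2691 UMIs per 1000000 (CPM). The part of either difference in the results below was not tested. The median gene was 0.42 log2 units higher in D, and each log2 ratio of D over P is to be read against that shift. The cells were epithelial, with all 7 basal markers (Krt5, Trp63 and others) detected in each library, while the erythroid markers and Col1a2 were at 0 and Ptprc, the pan-leukocyte marker, had at most 2 UMIs per library. In D, Dcn of the fibroblast list reached 1234 UMIs and Laptm5 of the leukocyte list 400 UMIs.

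In the complete proteasome a barrel, the core particle, cuts proteins inside a chamber formed by stacked rings of alpha and beta subunits. The outer alpha rings form the gate, and in the inner beta rings Psmb6 (caspase-like), Psmb7 (trypsin-like) and Psmb5 (chymotrypsin-like) carry the active sites. The regulatory particle caps the barrel: its base holds a ring of 6 ATPases, Psmc1 to Psmc6, that unfold and thread substrates, and its lid holds Psmd14, the enzyme that cuts ubiquitin off. Other caps, the activators PA28 and PA200, open the gate without ubiquitin, and in cells exposed to interferon Psmb8, Psmb9 and Psmb10 replace the active beta subunits to form the immunoproteasome. Urothelium renews slowly at rest, and its surface cells carry plaques of uroplakins in the membrane that faces the lumen.

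The 48 genes comprised 14 core particle genes (7 alpha and 7 beta), 17 regulatory particle genes (6 base ATPases, 3 other base genes and 8 lid genes), 3 tissue-restricted core genes, 5 alternative activators, the inhibitor Psmf1, 7 assembly chaperones and Psmc3ip, which carries a similar symbol but acts in homologous recombination. All but 2 genes reached the minimum of 100 UMIs over both libraries: Psma8, the testis alpha subunit, had 0 UMIs in each library, and Psmb11, the thymus beta subunit, had 8 in P and 4 in D. With 1 UMI per molecule no division by gene length was applied, but genes can still differ in how well their 3′ ends are captured. Together the core and regulatory particle genes took 0.357% of the UMIs in P and 0.475% in D.

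Proteasome transcripts took a larger share of UMIs in differentiated than in proliferative organoids, and the difference was about that of the median gene. The 14 core genes summed to 2182 CPM in P and 2823 CPM in D, a log2 ratio of 0.37 (0.35 to 0.39). The 17 regulatory particle genes went from 1392 to 1930 CPM, a log2 ratio of 0.47 (0.45 to 0.49). Relative to the median gene the core sum was 0.05 log2 units lower in D and the regulatory sum 0.05 higher. The median log2 ratio was 0.40 over the core genes, 0.56 over the regulatory particle genes and 0.41 over all 10719 genes with the minimum count. Among the counted genes the core was a smaller part of the sum in D: P held 1.57 core UMIs per regulatory UMI (1.55 to 1.59) and D held 1.46 (1.44 to 1.48). That ratio within a library does not depend on scaling, and the difference of the summed log2 ratios, core minus regulatory, was -0.10. The ratio does depend on which genes are counted. Sem1, a lid subunit without a Psm symbol, is not in the regulatory sum. It had 14932 UMIs in P and 12768 in D, where the 17 genes together had 37149 and 39194. Its log2 ratio was 0.17, and by these counts including Sem1 would remove most of the difference between the libraries. The lower ratio in D is therefore stated for the 17 counted genes only. No interval was computed for the ratio with Sem1.

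At 1.5-fold on the CPM scale, 17 of the 46 genes with the minimum count were higher in D and 0 were higher in P, where 36.2% of all genes were higher in D and 8.59% higher in P. The 17 comprised 4 of 14 core genes, 8 of 17 regulatory particle genes, 3 of 5 activators, 1 of 7 chaperones and Psmb10. Measured from the median gene, 2 of the 46 passed 1.5-fold with more in D (13.2% of all genes) and 4 with more in P (16.7% of all genes). The 2 were the ATPase Psmc4 and the base scaffold Psmd1, and the 4 were Psmb1, Psmd8, the chaperone Psmg4 and Psmc3ip. Both shares lay below those of all genes on this scale.

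**Figure D1:**
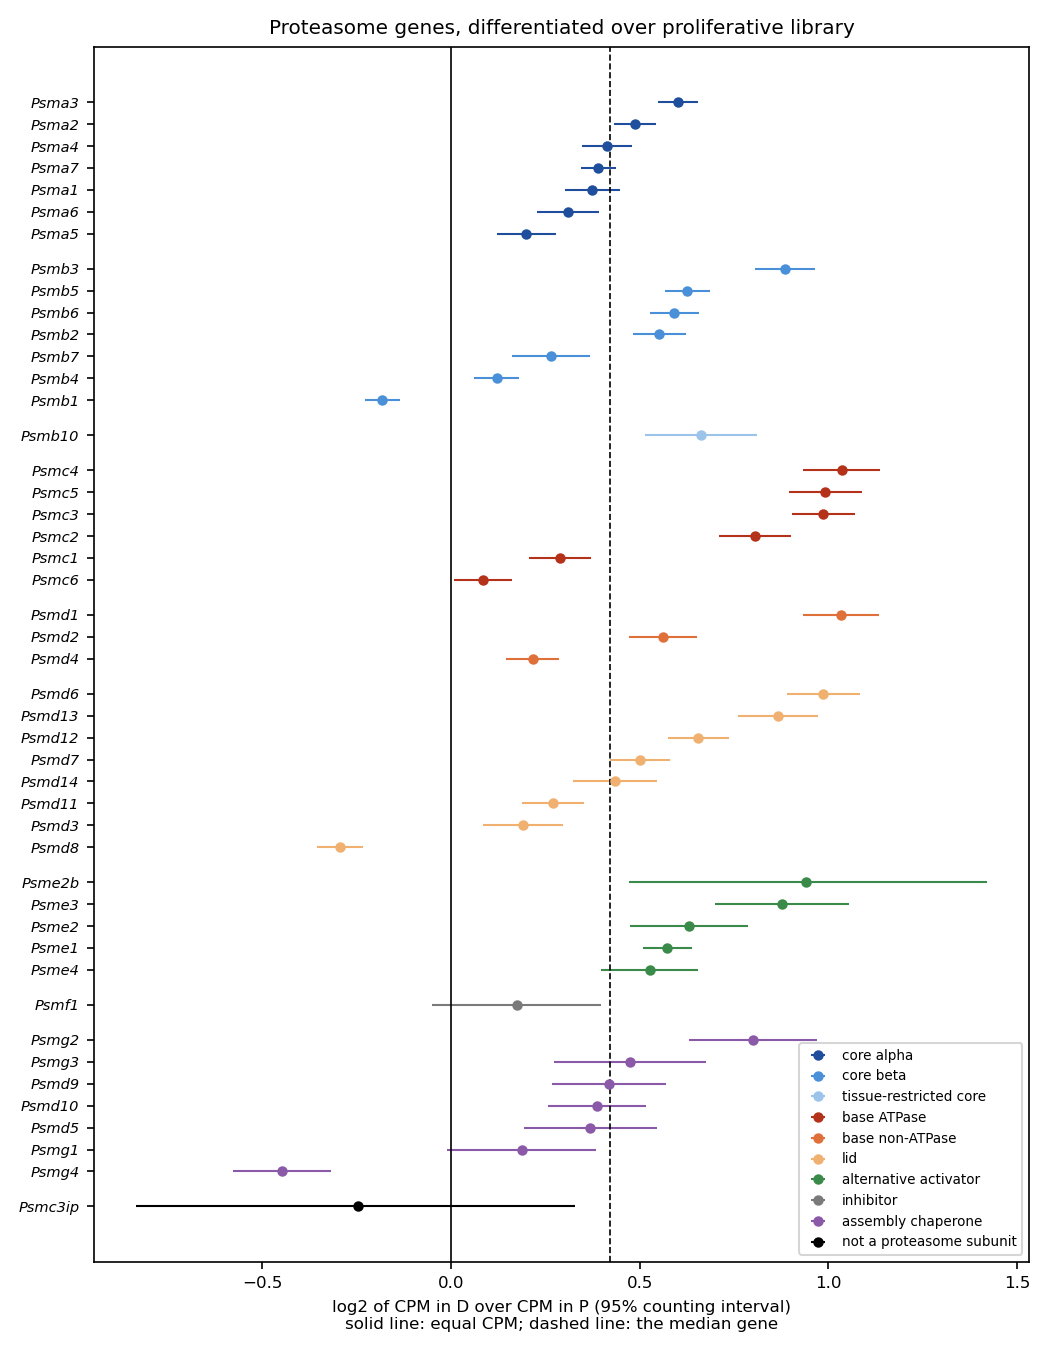
The 46 proteasome genes with at least 100 UMIs are ordered by role, with the log2 ratio of CPM in D over P on the horizontal axis and bars for the 95% counting interval. The solid line marks equal CPM and the dashed line the median gene at 0.42. Base ATPases spread from 0.08 to 1.04, and Psmb1, Psmd8 and Psmg4 have intervals wholly below 0.

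Among alpha subunits the differences were narrow. Psma7, the most abundant, had 276 CPM in P and 362 CPM in D, Psma3 had 195 and 296 CPM, and Psma6, the least abundant, had 94.1 and 117 CPM. Psma1, Psma2, Psma4 and Psma5 lay between, at 105 to 188 CPM in P and 121 to 263 CPM in D. The 7 log2 ratios ran from 0.20 for Psma5 to 0.60 for Psma3, and the sum of the ring was at the median gene. Part of the annotation of Psma2 overlaps another gene on the same strand, AW209491, with counts of 240 UMIs (P) and 304 UMIs (D).

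The beta ring was less uniform. The chymotrypsin-like subunit Psmb5 had 153 CPM in P and 236 CPM in D (log2 0.63, 0.57 to 0.69), and the caspase-like subunit Psmb6 had 133 and 200 CPM (0.59, 0.53 to 0.66). The trypsin-like subunit Psmb7 had 60.1 and 72.2 CPM, a log2 ratio of 0.27 (0.16 to 0.37). The 3 catalytic genes were thus unequal, with Psmb7 at the lowest level and the smallest difference of the 3. Of the structural beta subunits, Psmb3 had 81.3 CPM in P and 150 CPM in D, the largest log2 ratio of the core at 0.89 (0.81 to 0.97). Psmb2 had 118 and 173 CPM (0.55) and Psmb4 181 and 197 CPM (0.12). Psmb1 was the only one of the 14 core genes with less in D, at 347 CPM in P and 306 CPM in D (log2 -0.18, -0.23 to -0.14). It was the most abundant core gene in P, and its 9248 and 6204 UMIs weigh on the sum of the beta ring (log2 0.31), whose median gene was at 0.55.

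The 6 base ATPases fill a single ring in equal numbers, yet their transcripts did not differ between libraries by a common factor. Psmc4 had 47.5 CPM in P and 97.3 CPM in D (log2 1.04, 0.93 to 1.14). Psmc5 had 55.2 and 110 CPM (0.99), Psmc3 had 71.1 and 141 CPM (0.99), and Psmc2 had 59.7 and 104 CPM (0.81). These 4 were all more than 1.5-fold higher in D. Psmc1, at 94.1 and 115 CPM, had a log2 ratio of 0.29 (0.21 to 0.37), and Psmc6, at 114 and 121 CPM, of 0.08 (0.01 to 0.16). The 2 ATPases with the most transcript in P were those that differed least, and the ring was more even in D. The highest ATPase exceeded the lowest 2.40-fold in P and 1.45-fold in D, and the coefficient of variation over the 6 genes was 34.8% in P and 13.3% in D.

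The same held in each cluster of cells described below: the highest-to-lowest ratio of the ATPases was 1.95 to 3.29 in the 4 clusters of P and 1.49 to 1.57 in the 3 clusters of D. The coefficient of variation was also lower in D for the beta ring (61.7% in P, 37.9% in D) and the lid without Sem1 (64.4% and 34.5%). The most abundant genes of these 2 sets in both libraries were Psmb1 and Psmd8. The alpha ring did not share the lower spread in D, with 41.0% in P and 44.7% in D. These spreads are unaffected by the scaling of the libraries.

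In the rest of the base, Psmd1, the largest scaffold of the base, had 49.7 CPM in P and 102 CPM in D (log2 1.03, 0.93 to 1.13). Psmd2, the other scaffold, had 71.5 and 106 CPM (0.56), and the ubiquitin receptor Psmd4 had 134 and 156 CPM (0.22). In the lid, Psmd6 (54.1 and 107 CPM, log2 0.99), Psmd13 (46.5 and 84.8 CPM, 0.87) and Psmd12 (83.8 and 132 CPM, 0.66) were over 1.5-fold higher in D. The deubiquitinase Psmd14 was at the median gene, with 49.0 and 66.2 CPM (0.43, 0.32 to 0.55). Psmd8 alone among the regulatory particle genes was lower in D, at 217 CPM in P and 177 CPM in D (log2 -0.29, -0.35 to -0.23). It was the most abundant of the counted regulatory particle genes in both libraries, below the uncounted lid gene Sem1 (560 and 629 CPM). Psmd7 had 94.7 and 134 CPM (0.50), Psmd11 92.4 and 111 CPM (0.27) and Psmd3 57.8 and 66.0 CPM (0.19).

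The promoters of the genes at the extremes of these patterns were taken from RefSeq (GRCm38.p6), as 250 bases before to 50 bases after the annotated start, each written 5′ to 3′ on its gene's strand. Of the 48 genes, 40 had an entry. Capitals mark matches, on either strand, to TGACNNNGC (the core of the antioxidant response element, bound by NRF1 and NRF2, encoded by Nfe2l1 and Nfe2l2), CCAAT (the NF-Y box) or CCGGAAG (a core of ETS-family sites). Psmb6 represents the catalytic subunits, Psmc4 and Psmc6 the ATPases with the largest and smallest differences, Psmd6 a lid gene that follows Psmc6 across clusters, and Psmd8 the lid gene that goes the other way.
Psmb6, chr11:70525107-70525406, plus strand: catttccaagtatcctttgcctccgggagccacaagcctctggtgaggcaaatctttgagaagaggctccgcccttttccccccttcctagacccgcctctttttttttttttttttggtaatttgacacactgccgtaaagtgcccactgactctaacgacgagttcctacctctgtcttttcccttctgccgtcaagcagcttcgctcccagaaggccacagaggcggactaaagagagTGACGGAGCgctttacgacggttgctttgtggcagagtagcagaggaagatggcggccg
Psmc4, chr7:28050043-28050342, minus strand: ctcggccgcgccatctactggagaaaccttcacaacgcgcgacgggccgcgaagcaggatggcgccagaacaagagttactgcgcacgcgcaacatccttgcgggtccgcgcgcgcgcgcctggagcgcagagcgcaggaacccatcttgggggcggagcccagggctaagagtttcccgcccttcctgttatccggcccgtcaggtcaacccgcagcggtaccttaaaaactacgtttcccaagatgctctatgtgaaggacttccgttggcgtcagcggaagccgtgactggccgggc
Psmc6, chr14:45329574-45329873, plus strand: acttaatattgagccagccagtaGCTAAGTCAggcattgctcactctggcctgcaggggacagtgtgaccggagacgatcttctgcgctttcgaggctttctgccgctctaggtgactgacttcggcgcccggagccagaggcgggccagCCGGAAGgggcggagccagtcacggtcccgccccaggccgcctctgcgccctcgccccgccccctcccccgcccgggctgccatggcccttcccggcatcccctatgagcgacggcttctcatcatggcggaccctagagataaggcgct
Psmd6, chr14:14120896-14121195, minus strand: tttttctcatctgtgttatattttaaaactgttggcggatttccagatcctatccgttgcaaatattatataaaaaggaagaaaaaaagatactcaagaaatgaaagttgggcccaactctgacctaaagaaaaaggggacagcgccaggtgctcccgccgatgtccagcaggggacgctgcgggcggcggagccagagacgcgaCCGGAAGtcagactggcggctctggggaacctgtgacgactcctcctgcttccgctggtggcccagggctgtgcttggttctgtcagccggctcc
Psmd8, chr7:29180624-29180923, minus strand: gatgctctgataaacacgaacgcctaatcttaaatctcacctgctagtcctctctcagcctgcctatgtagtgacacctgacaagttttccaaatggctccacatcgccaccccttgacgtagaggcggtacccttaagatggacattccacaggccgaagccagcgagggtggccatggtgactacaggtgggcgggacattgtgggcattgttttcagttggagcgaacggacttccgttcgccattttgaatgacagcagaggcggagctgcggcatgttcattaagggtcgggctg

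CCGGAAG occurred in 9 of the 14 regulatory particle genes with a promoter entry, in 1 of 11 core genes and in 8.86% of all 32851 promoters of the same length. Psmc6 and Psmd6 hold it, and Psmc4 and Psmd8 hold none of the 3 motifs in this window. CCAAT occurred in 6 of 11 core genes, 4 of 14 regulatory particle genes, 14 of the 40 members with an entry and 37.4% of all promoters. TGACNNNGC was present in Psmb5, Psmb6, Psmc6 and Psmd12 among the core and regulatory genes and in 12.4% of all promoters. Of these 4, 3 were over 1.5-fold higher in D on the CPM scale and Psmc6 was not. On that scale 12 of the 31 core and regulatory genes and 36.2% of all genes were. Measured from the median gene, Psmc4 and Psmd1 were the only members past 1.5-fold with more in D, and neither is among these 4. A link between motif and level was not tested. No 2 matches of TGACNNNGC and CCGGAAG overlapped in the members, and the members' promoters had a median GC content of 57.3% where all promoters had 52.7%. A match is a run of letters and does not show that a factor binds there.

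Of the genes that help build or replace the particle, Pomp, the chaperone of the maturing core, was the most abundant with 222 CPM in P and 338 CPM in D (log2 0.61, 0.56 to 0.66). The alpha-ring chaperone Psmg2 had 19.0 and 33.1 CPM (0.80, 0.63 to 0.97), whereas its dimer partner Psmg1 had 17.1 and 19.5 CPM (0.19, -0.01 to 0.38). The other dimer was also unequal: Psmg3 had 15.0 and 20.8 CPM (0.47), and Psmg4 had 51.1 and 37.5 CPM, the lowest log2 ratio of the 46 genes at -0.45 (-0.58 to -0.32). The base chaperones Psmd5, Psmd9 and Psmd10 had log2 ratios of 0.37, 0.42 and 0.39, each with the median gene inside its interval. The inhibitor Psmf1 had 13.5 and 15.3 CPM (0.17, -0.05 to 0.40).

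Of the 5 activators, 3 passed 1.5-fold with more in D on the CPM scale (Psme2, Psme2b and Psme3), where 36.2% of all genes did. On the median-gene scale 0 passed, where 13.2% of all genes did. The PA28 genes Psme1 and Psme2 had 135 and 200 CPM, and 23.2 and 35.9 CPM (log2 0.57 and 0.63). They assemble into a common ring, yet Psme1 was far more abundant than Psme2, and reads of Psme2 may be divided with its near-identical copy Psme2b, with 65 UMIs (P) and 95 UMIs (D). Psme3, the nuclear activator, had 16.7 and 30.6 CPM (0.88, 0.70 to 1.06), and Psme4, the PA200 gene, had 35.9 and 51.7 CPM (0.53, 0.40 to 0.65), with the median gene inside its interval.

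The immunoproteasome genes went different ways. Psmb10 had 25.7 CPM in P and 40.6 CPM in D (log2 0.66, 0.51 to 0.81), and Psmb8, outside the rule, had 6.48 and 11.6 CPM (0.84, 0.55 to 1.13). Psmb9, also outside the rule and encoded beside Psmb8, had 10.9 and 8.96 CPM (-0.28, -0.56 to -0.01). Irf1, an interferon-induced transcription factor, had 17.7 and 15.1 CPM (-0.23).

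Of the 33 other genes listed for comparison from the ubiquitin and proteasome pathway, 10 passed 1.5-fold on the CPM scale with more in D (36.2% of all genes). With more in P there were 2 (8.59% of all genes). Measured from the median gene, 2 passed with more in D (13.2% of all genes) and 5 with more in P (16.7% of all genes). All these shares lay below those of all genes, or near them. The median log2 ratio of the list was 0.39. The unfoldase Vcp, which extracts ubiquitinated proteins from membranes and complexes, had 134 and 300 CPM, the largest log2 ratio of the list at 1.16 (1.10 to 1.22). The polyubiquitin gene Ubb had 323 and 615 CPM (0.93). Nfe2l1 and Nfe2l2, which encode activators of proteasome genes, were at the median gene with log2 ratios of 0.42 and 0.39. Sem1, the smallest lid subunit, which has no Psm symbol here, had 560 and 629 CPM (0.17). The ubiquitin receptor Adrm1 had 8.32 and 14.7 CPM (0.82), while Usp14 and Uchl5, the deubiquitinases that dock on the particle, had log2 ratios of 0.10 and 0.16.

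Cells of each library were clustered anew by their variable genes, giving P0 to P3 and D0 to D2. P3 (339 cells, led by Ccna2 and Hmmr) is called proliferating-like, since all 6 mitosis markers such as Mki67 and Top2a were above the rest, and D2 (668 cells, with 5 of 6 luminal markers above the rest and Upk3a and Upk3b among its leading genes) luminal-like. D2 was led by Ubd, a ubiquitin-like modifier induced by interferon, with Ankrd1 and the interferon-family gene Ifit1bl1 next. The others are known by their leading genes: P0 (2597 cells) by Ctla2a and Nbl1, P1 (2574 cells) by Sprr3 and Cnfn, P2 (1308 cells) by Fmo2 and Mmp7, D0 (2918 cells) by Reg1 and Agr2, and D1 (1310 cells) by Acta2 and Cav1. Clusters were drawn from the same counts, so their contrasts are descriptions.

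Within P the proteasome genes peaked in the proliferating-like cells. The 31 core and regulatory genes summed to 4337 CPM in P3, 3627 CPM in P0, 3561 CPM in P1 and 3259 CPM in P2. P3 exceeded the other P cells by 0.30 log2 units (0.26 to 0.33), where the median gene exceeded them by 0.11. P3 had the highest CPM of the 4 clusters for 26 of the 31 genes, 13 core and 13 regulatory, where 41.4% of all genes with at least 1000 UMIs in P were highest there. The 5 exceptions were Psmb1, Psmc6, Psmd3, Psmd4 and Psmd8. The largest differences from the rest were in Psmd1 (78.5 CPM in P3, log2 0.71), Psmd7 (148 CPM, 0.69) and Psmd13 (70.7 CPM, 0.65) of the regulatory particle and Psma4 (207 CPM, 0.63) and Psmb2 (171 CPM, 0.58) of the core. The ubiquitin receptor Psmd4 (113 CPM, log2 -0.26) and the lid gene Psmd3 (48.0 CPM, -0.28) were lowest in P3 among the 4 clusters. P2 was at the other end on the CPM scale, though not once ribosomal protein genes are set aside (below), with the lowest CPM for 17 of the 31 genes where 27.3% of all genes were lowest there. P2 also had the largest share of ribosomal protein UMIs, 42.1%, against 35.0% in P3.

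Within D the cells of D0 held the least. The 31 genes summed to 4497 CPM in D0, 5182 CPM in D1 and 5251 CPM in the luminal-like D2. D0 was lowest for 28 of the 31 genes, where 28.0% of all genes with at least 1000 UMIs in D were lowest there, and its sum lay 0.21 log2 units below the other D cells (0.19 to 0.23 below), with the median gene 0.06 below. The exceptions were Psmb1, Psmc5 and Psmd3. D1 was highest for 16 genes (48.3% of all genes) and D2 for 14 (32.4% of all genes). Genes of the dissociation response summed to 3120 CPM in D0, 2354 CPM in D1 and 1364 CPM in D2, and the part of that order in the proteasome values was not tested.

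**Figure D2:**
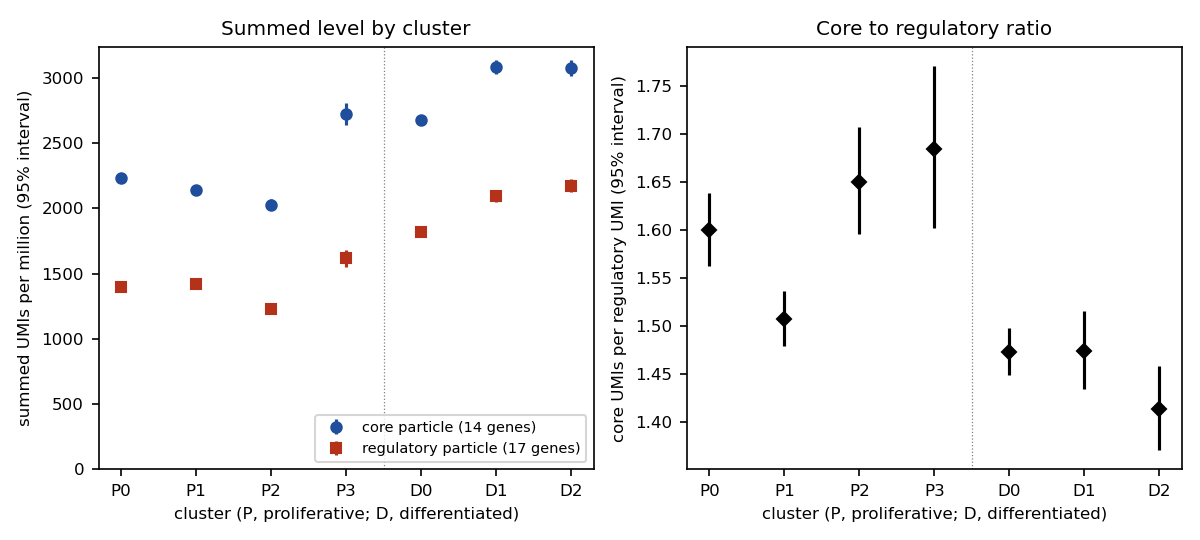
The left panel shows the summed CPM of the core and regulatory particle genes in each cluster, and the right panel the core UMIs per regulatory UMI, with 95% counting intervals and a dotted line between libraries. Core sums run from 2029 CPM in P2 to 3087 CPM in D1, and the ratio is 1.68 in P3 and 1.41 in D2; the right axis does not start at 0.

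Every D cluster had more core plus regulatory CPM than every P cluster, the nearest pair being D0 at 4497 and P3 at 4337. That order did not outlast a change of scale. Per 1000000 UMIs of all genes other than mitochondrial and ribosomal protein genes, P3 was the highest at 7297 (7123 to 7474), followed by D1 at 7142 and D2 at 6945, and P1 was the lowest at 5990, below D0 at 6409. P3 and D1 had overlapping intervals. On this scale P2 no longer lay below the rest of P.

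The balance of core and regulatory particle differed among clusters as well. Within P the core-to-regulatory UMI ratio was 1.68 (1.60 to 1.77) in P3, 1.65 (1.60 to 1.71) in P2, 1.60 (1.56 to 1.64) in P0 and 1.51 (1.48 to 1.54) in P1. P1 lay below the other 3, whose intervals overlap. In D the ratio was 1.47 in D0 and in D1 and 1.41 (1.37 to 1.46) in D2. P1 was also the P cluster with the most Psmd8, at 264 CPM where the other 3 had 148 to 188 CPM. Sem1, which these ratios leave out, was likewise highest in P1, at 649 CPM, with 478 in P0, 452 in P2 and 552 in P3. In D it had 619 CPM in D0, 688 in D1 and 592 in D2. Without Psmd8, a gene singled out after its values were seen, the ratio was 1.85 in P0, 1.85 in P1, 1.88 in P2 and 1.89 in P3, and 1.61 in each of D0, D1 and D2, so that all intervals overlapped within a library. The libraries themselves then stood further apart, at 1.86 (1.83 to 1.88) in P and 1.61 (1.59 to 1.63) in D, and no cluster of P overlapped with any of D. Both statements hold only with Sem1 left out as well. Sem1 had 8280 UMIs in P1 and 8066 in D0. By these counts, including it would bring P1 close to the D clusters and away from the other P clusters. Intervals with Sem1 were not computed.

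**Figure D3:**
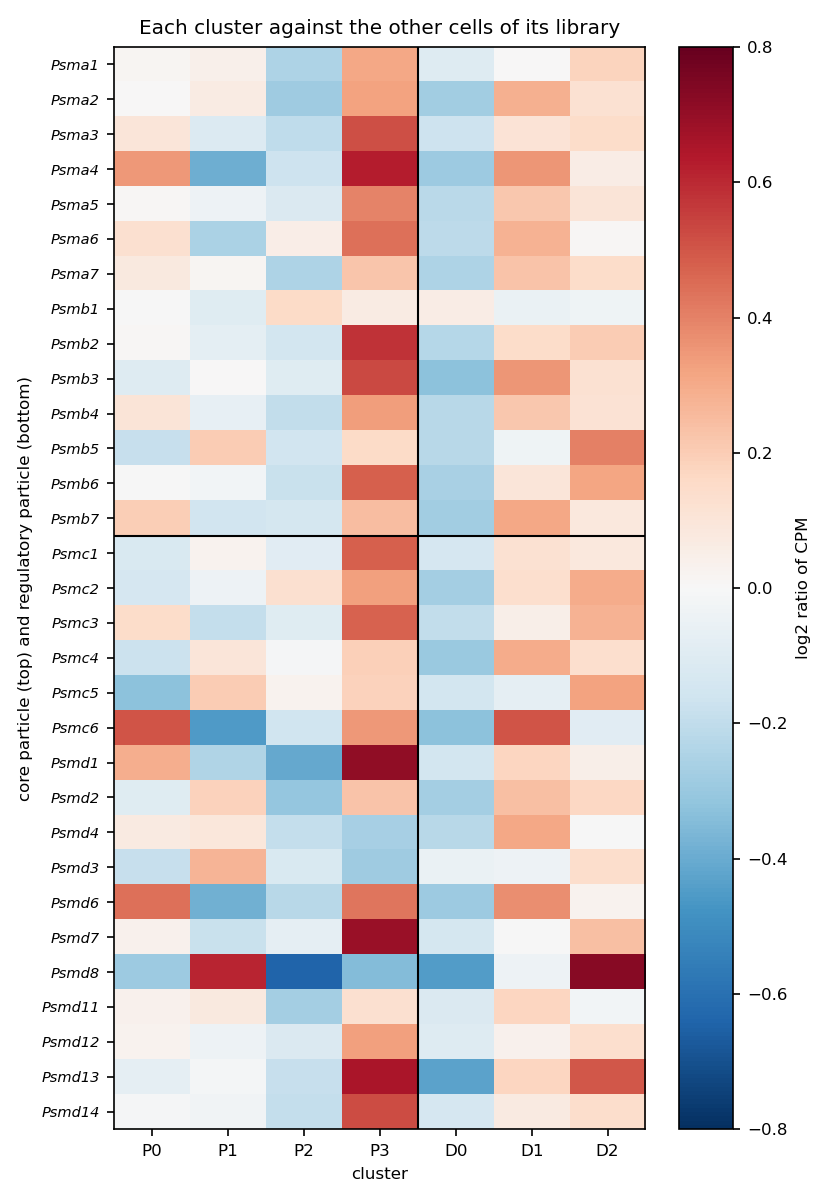
Rows are the 14 core genes (top) and 17 regulatory particle genes (bottom), columns the clusters, and colour the log2 ratio of a gene's CPM in that cluster over the other cells of its library, from -0.8 (blue) to 0.8 (red). Column P3 is red for most rows and D0 blue for most rows, while Psmb1 is nearly flat and Psmd8 is red in P1 and D2.

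Psmb1 and Psmd8 departed from the common pattern. Psmb1 was nearly flat: its CPM was 346, 334, 378 and 361 in P0 to P3 and 310, 297 and 300 in D0 to D2, highest in the clusters where most other subunits were lowest. P2 and D0 are also the clusters with the largest share of ribosomal protein UMIs in their library. Psmd8 was high in P1 (264 CPM) and D2 (266 CPM) and between 148 and 188 CPM in each other cluster. P1 carried the squamous genes Sprr3 and Cnfn, and D2 the uroplakins.

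Members whose order between P0 and P1 ran with that between D1 and D2 were fewer, as a share, than among all genes in both directions. Psma4, Psma6, Psmc6 and Psmd6 were higher in P0 than in P1 and higher in D1 than in D2, with both intervals above 0, as were Psmg2 and Psmc3ip. These were 6 of the 46 members, where 20.2% of all genes had that order. Psmc6 had 144 CPM in P0, 95.7 in P1, 158 in D1 and 115 in D2. Psmd6 had 66.4, 46.7, 131 and 109 CPM in the same order. The opposite order in both libraries was found for Psmb5, Psmc5, Psmd8 and Psme1, 4 of the 46 members, where 12.4% of all genes had it. Basal markers summed to 9944 CPM in P0 and 20370 CPM in D1, against 6344 in P1 and 8798 in D2. Within the ATPase ring, then, Psmc6 and Psmc5 ran in opposite directions between the same clusters (Psmc5: 46.8 CPM in P0, 59.2 in P1, 105 in D1 and 132 in D2).

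**Figure D4:**
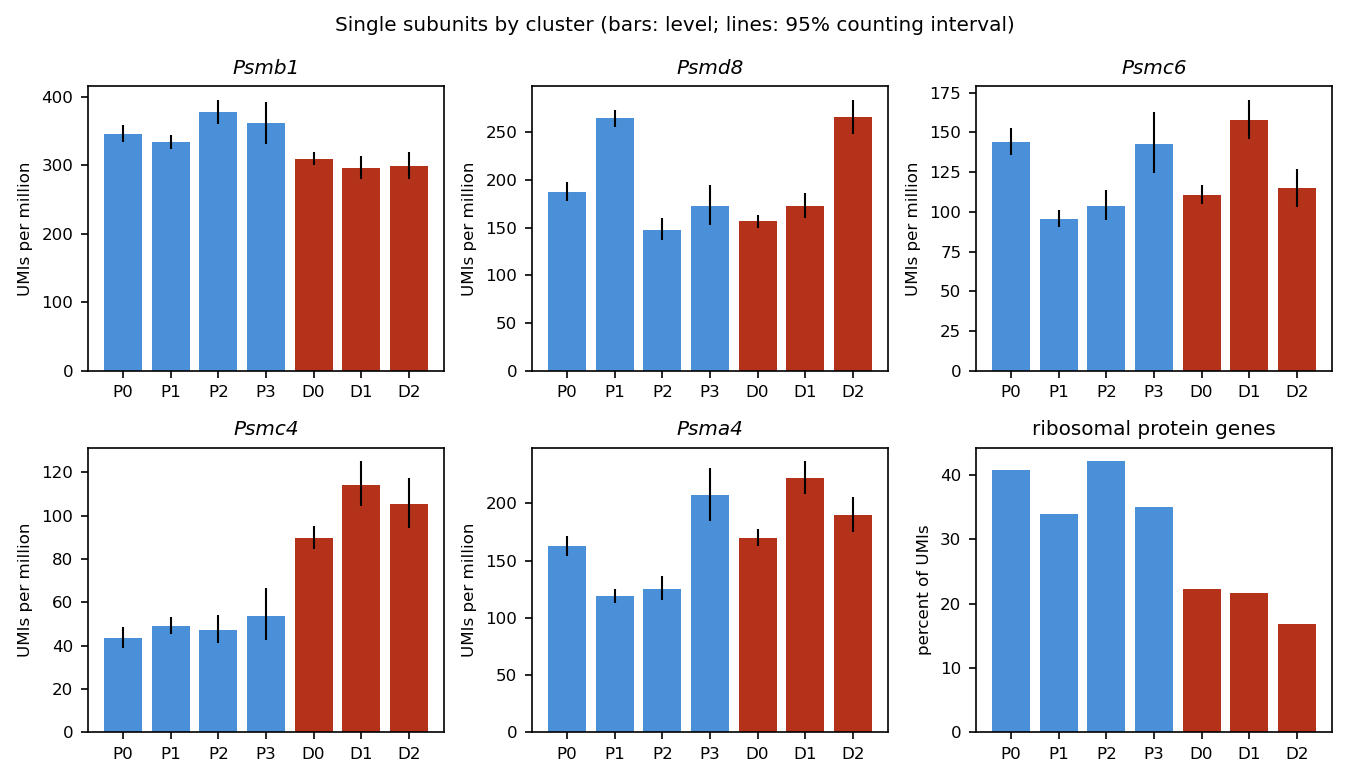
Bars give the CPM of 5 subunits in each cluster (blue for P, red for D) with 95% counting intervals, and the last panel the percent of UMIs from ribosomal protein genes. Psmd8 is highest in P1 and D2, Psmc6 and Psma4 are high in P0, P3 and D1, and Psmc4 is higher in every D cluster than in every P cluster.

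Of the interferon-linked genes, Psmb8 had 22.4 CPM in D2, 11.0 in D0 and 5.11 in D1, and 4.71 to 7.14 CPM in the P clusters. Psmb10 was likewise highest in D2 (51.7 CPM) and lowest within D in D1 (31.9 CPM). Psmb9 was highest in P1 (14.6 CPM, 5.55 in P0) and lowest in D1 (3.90 CPM). Psme1 had 240 CPM in D2, 199 in D1 and 191 in D0, and Psme4 had 43.1 CPM in P1 and 26.5 in P0, and 61.3 in D1. Psmc3ip, the recombination cofactor, had 19.5 CPM in the proliferating-like P3 and 0.448 to 3.28 CPM in the other P clusters.

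**Figure D5:**
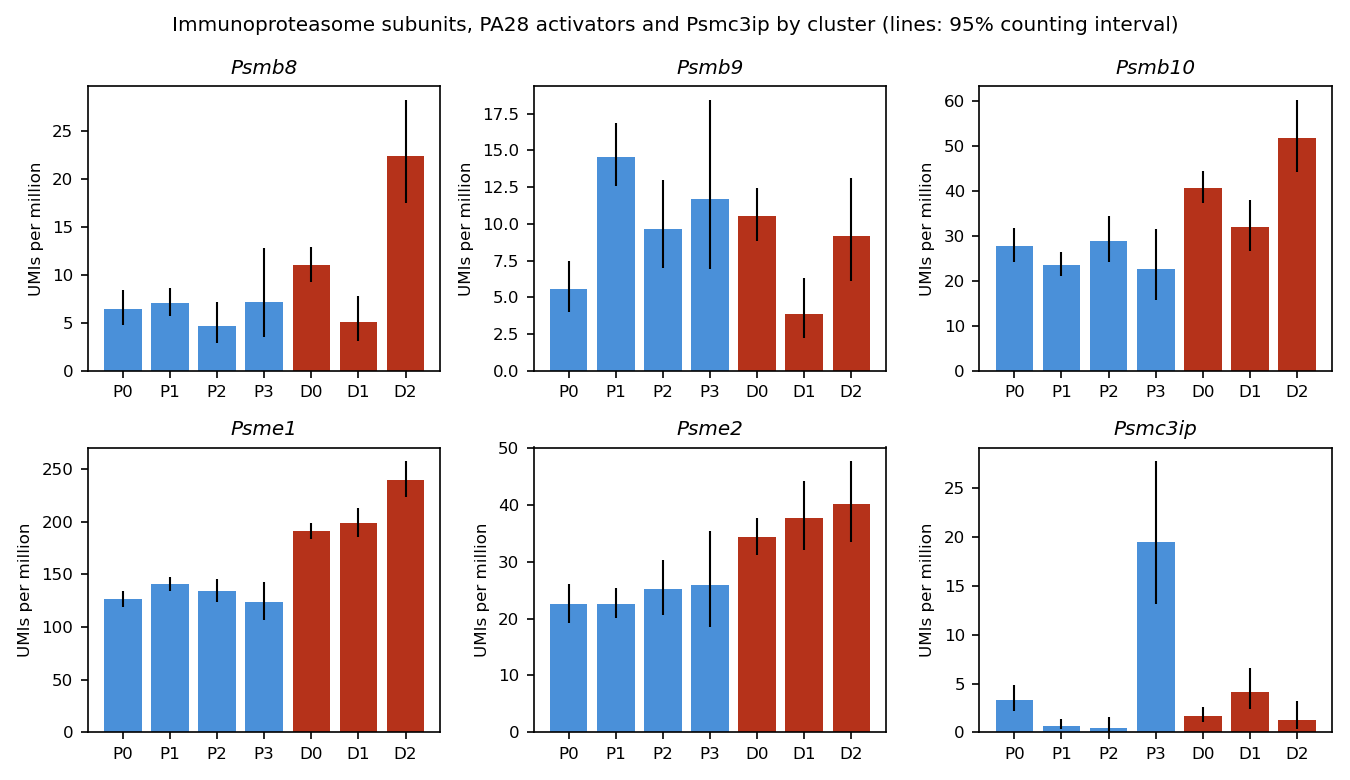
Bars give the CPM of Psmb8, Psmb9, Psmb10, Psme1, Psme2 and Psmc3ip in each cluster (blue for P, red for D) with 95% counting intervals. Psmb8 and Psmb10 are highest in the luminal-like D2, Psmb9 in P1 and Psmc3ip in the proliferating-like P3.

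To compare single cells at equal depth, each cell was thinned to 2100 UMIs, which left out 180 cells of P and 479 of D with fewer. A thinned P cell then held a median of 4 core UMIs (quartiles 3 and 6) and 3 regulatory UMIs (2 and 4), and a D cell 6 core UMIs (4 and 8) and 4 regulatory UMIs (3 and 5), so the libraries overlapped widely cell by cell. Only 0.0753% of P cells and 0.0226% of D cells had no UMI of any of the 31 genes, and no cell type that lacks the proteasome exists to set a background for these shares.

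States were then called in the thinned cells from marker genes rather than clusters. The 263 mitotic cells of P (at least 2 of 6 mitosis genes) held 8.76 core plus regulatory UMIs per cell (8.41 to 9.13), and the 6297 P cells in no state 7.39 (7.32 to 7.45), a log2 ratio of 0.25 (0.19 to 0.31). The core accounted for more of it, with 0.30 (0.23 to 0.38) for the core and 0.16 (0.05 to 0.25) for the regulatory particle, and these intervals overlap. The 37 S-phase cells held 8.78 (7.85 to 9.79), a log2 ratio of 0.25 to the cells in no state that was 0.080 with a minimum of 1 gene. Of the mitotic cells 82 were exactly at the minimum of 2 genes, as were 31 of the S-phase cells. In D only 8 cells were mitotic, too few to compare. The 1567 D cells with at least 2 uroplakin UMIs held 10.2 UMIs (10.0 to 10.4) and the 2820 in no state 10.0 (9.89 to 10.1), a log2 ratio of 0.03 (0.001 to 0.06), and 454 of the former were at the minimum. The difference changed sign without thinning and with a minimum of 1 UMI.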

How the data were processed

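Chromium Single Cell 3′ v3 libraries of P and D organoids (1 each) were demultiplexed and counted by the authors with bcl2fastq 2.19.0 and Cell Ranger 3.0.2 against GRCm38/mm10. The deposited values are raw UMI counts per gene and barcode. Cells with over 800 genes and at most 12% mitochondrial UMIs were kept, and no doublet caller was run. Counts were summed per library or cluster and scaled to 1000000 UMIs (CPM). Intervals are exact Poisson (levels) or exact conditional binomial (ratios), 95%, and cover counting error only. With 1 library per condition no p-value was computed, and a gene was called at 1.5-fold among genes with at least 100 UMIs. The median gene is the median ratio of genes reaching 100 UMIs in both libraries. Cells were clustered per library in Seurat 5.3.0 (R 4.3.3; 2000 variable features, 25 components for P and 21 for D, resolution 0.2). Thinning, sums and motif searches used Python 3.11.15 and NumPy 2.4.6, and the interval code was tested on simulated data. Every member and comparison gene is named or counted, and some comparison genes are not reported here. Cluster names rest on listed markers and may differ from the study's. The members and lists were chosen with earlier results of these data known. Alternatives were other scalings, cell filters, clusterings, depths and minimums.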

Additional observations from a re-analysis of the deposited data

Results flagged for a closer look

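Proteasome transcripts were also present in the barcodes that the filter left out. The 1376 left-out barcodes of P held 3270 core and regulatory UMIs per 1000000 non-mitochondrial UMIs (3191 to 3350), where the kept cells held 3799. The 2079 of D held 3157 (3081 to 3235), where the kept cells held 5118. In the left-out barcodes of D the core-to-regulatory UMI ratio was 1.14 (1.09 to 1.20), below the 1.46 of the kept cells, and in those of P it was 1.48 (1.41 to 1.56), with the kept cells at 1.57. The kept and left-out barcodes of D therefore differed more in the counted core genes than in the counted regulatory particle genes.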

How the results depend on the processing

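No paired analysis was possible because each condition has 1 library and no result comes from a test. Scaling moved the D over P values most. With median-ratio scaling the core median became -0.020, a change of sign, and the regulatory median 0.14. Of the 31 core and regulatory genes, 2 then passed 1.5-fold with more in D (13.2% of all genes) and 2 with more in P (16.7% of all genes). Leaving mitochondrial and ribosomal protein genes out of the totals, the medians became 0.066 and 0.226. Of the 31 genes, 5 then passed with more in D and 1 with more in P. On the CPM scale, 2 of the 31 genes passed 2-fold with more in D. The share of all genes was not computed without mitochondrial and ribosomal protein genes or at 2-fold. Looser, stricter and inclusive cell filters and leaving out the top 5% of cells by UMIs left the medians, the core minus regulatory difference and the library ratios inside their intervals. A mean over cells and leaving out P3 (chosen after seeing the data) did so for the medians and the difference, and leaving out Psmb1 and Psmd8 (also chosen then) for the difference. Of cluster contrasts over the 31 genes, leaving out mitochondrial and ribosomal protein genes gave 0.11 for P0, -0.15 for P1, 0.0058 for P2 (sign changed), 0.22 for P3, -0.14 for D0, 0.13 for D1 and 0.076 for D2, and it changed the sign of the core in P2 (0.039) and of the regulatory particle in P1 (-0.079). Without the top 5% of cells they were -0.084 for P2, 0.26 for P3, -0.18 for D0, 0.11 for D1 and 0.14 for D2, and D2 was 0.14 when clustered without the members. S-phase cells were at 0.080 with a minimum of 1 gene, and uroplakin cells at -0.019 without thinning and -0.0070 with a minimum of 1. Without Psmd8 (chosen after seeing the data), and with Sem1 also left out, the core-to-regulatory ratio was 1.86 in P and 1.61 in D. Cluster ratios under looser filters were not run, since their cells have no cluster. The causes were not tested. Depth limits the rarer genes: Psme2b, Psmc3ip and Psmb11 had at most 95 UMIs in a library.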
